A study of Homo sapiens with 6 samples.

Results

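The insulin-like growth factor (IGF) group described here holds 10 genes of the 60671 in the deposited table, matched by gene symbol: the 7 binding protein genes IGFBP1 to IGFBP7, the receptor gene IGF1R and the receptor substrate genes IRS1 and IRS2. All 10 were among the 14377 genes that entered the test. They were measured by RNA-Seq in U87, an established human glioblastoma cell line, after 48 h with 100 μM rutaecarpine, an alkaloid of Evodia fruit, in 3 libraries. The control group was 3 libraries of U87 cells kept for the same time with the solvent, 0.1% dimethyl sulfoxide (DMSO), which the treated cells received as well. According to the sample labels, the cells were grown with 10% fetal bovine serum and dosed in serum-free medium. Both groups come from 1 cell line. The labels do not say whether the libraries came from separate cultures, so p values measure the spread between these libraries, which may be technical.

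IGF1 and IGF2 are growth factors that act through IGF1R, a tyrosine kinase at the cell surface. The activated receptor phosphorylates IRS1 and IRS2, adaptor proteins that recruit phosphoinositide 3-kinase (PI3K) and so turn on AKT. IGFBP proteins are secreted, hold IGFs outside the cell and release them when cleaved by proteases, and several also act on cells without IGF. IGFBP2 is well known for its high level in many glioblastomas, and serum is a usual source of IGFs for cells in culture.

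Rutaecarpine-treated cells carried the IGFBP mRNAs in different proportions from control cells. IGFBP1, IGFBP3 and IGFBP4 rose, by 15.7-, 2.58- and 2.70-fold in mean level, and IGFBP2 and IGFBP5 fell, by 3.77- and 11.6-fold. IRS2 rose by 2.13-fold. IGFBP6, IGFBP7, IGF1R and IRS1 did not pass the test. A gene was counted as changed at an adjusted p of at most 0.05 (limma on log2(TPM + 1), Benjamini-Hochberg over all tested genes), and as a DEG (differentially expressed gene) if its absolute log2 fold change was also above 1. By this rule 4 of the 10 genes were higher and 2 were lower, where 4.6% of all tested genes were higher and 4.68% were lower. The 3 higher DEGs (IGFBP1, IGFBP3 and IGFBP4) and the 2 lower DEGs (IGFBP2 and IGFBP5) stand beside 2.01% and 1.5% of all tested genes. In 7 of the 10 genes the libraries of the groups did not overlap, against 33.3% of all tested genes. Across the 10 genes the median log2 fold change, 0.09, lay next to that of all tested genes, 0.08.

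Levels are given in TPM, a share of all transcripts in a library that is corrected for transcript length, so that genes can be compared with each other. The libraries summed to between 990889 and 995734 TPM, and the number of reads is unknown, so no counting error is given. CYP1B1, a target of the aryl hydrocarbon receptor (AhR) that rutaecarpine activates, had 42.8 to 84.7 TPM in the controls and 335 to 423 TPM in the treated libraries, and CYP1A1 had at most 0.19 and at least 1.12 TPM. Of the 6 markers of mesenchymal glioma cells looked up, all were expressed, led by VIM, and they summed to 10840 to 12260 TPM in the controls and 8762 to 9607 TPM after rutaecarpine. Means of VIM, NES, CAV1 and TNC were lower after rutaecarpine, and those of CD44 and CHI3L1 were higher. Of 5 glial markers, 2 reached 1 TPM, with sums of 5.12 to 6.74 and 7.78 to 9.11 TPM, while SOX2 was at most 0.06 TPM and AQP4 was listed at 0 in every library. The sums were 22.5 to 32.5 and 19.3 to 21.7 TPM for 3 neuronal markers, 8.92 to 10.7 and 8.74 to 12.75 TPM for 4 epithelial markers, 1.04 to 1.17 and 1.20 to 2.20 TPM for 3 endothelial markers, and at most 0.55 TPM for 3 immune markers. The part of other cell types in the results was not tested. As in any bulk sample, fewer cells that express a gene and less RNA per cell cannot be told apart. Control replicate 3 stood apart. Its median log2(TPM + 1) was 3.56, against 3.81 to 4.00 in the other 5 libraries, and its values fell with transcript length. Relative to control replicates 1 and 2 on the log2(TPM + 1) scale, the median difference was 0.09 for the 2216 genes with a longest transcript of 1000 to 2000 bases and -0.74 for the 1103 genes of 8000 bases or more. Each result is therefore given with and without this library where the difference matters.

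The binding protein genes lie in places that pair some of them. In GENCODE release 29 on GRCh38, IGFBP1 (ENSG00000146678, plus strand, 45888357 to 45893668) and IGFBP3 (ENSG00000146674, minus strand, 45912245 to 45921874) face each other on chromosome 7 with 18576 bases between them and no annotated gene in the gap. IGFBP2 (ENSG00000115457, plus strand, 216632828 to 216664436) and IGFBP5 (ENSG00000115461, minus strand, 216672105 to 216695525) face each other in the same way on chromosome 2, with 7668 bases and no annotated gene between them. Both genes of the chromosome 7 pair rose and both genes of the chromosome 2 pair fell. IGFBP4 (ENSG00000141753) is on chromosome 17 from 40443461 to 40457731, IGFBP6 (ENSG00000167779) on chromosome 12 from 53097436 to 53102345 and IGFBP7 (ENSG00000163453) on chromosome 4 from 57030773 to 57110385. IGF1R (ENSG00000140443) spans 98648539 to 98964530 on chromosome 15, IRS1 (ENSG00000169047) spans 226731317 to 226799759 on chromosome 2 and IRS2 (ENSG00000185950) spans 109752698 to 109786568 on chromosome 13.

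The study looked for dioxin response elements, the sites that AhR binds, so the 250 bases before each transcription start in the RefSeq promoter table (GRCh38.p14) were searched on both strands. The table matched 8 of the 10 genes, with 10 starts, and IGFBP1 and IGFBP7 were not matched. The study searched a much longer stretch before the coding sequence and listed 3 putative sites for IGFBP3. Counts in the short windows used here do not bear on the counts of the study. The letters it used, CACGCNA or TNGCGTG, were in 0 of the 10 short windows and in 4.52% of all 35116 promoters of the same length. The shorter core GCGTG, read as CACGC on the other strand and contained in those letters, was in 4 of the 10 starts and in 32.2% of all promoters. IGFBP3 held 3 copies of this shorter core, 209, 167 and 55 bases upstream, IGF1R held 4, and IRS1 and 1 start of IGFBP2 held 1 each. The windows of a pair of genes that rose, IGFBP3 (chromosome 7, 45921273 to 45921522, minus strand) and IGFBP4 (chromosome 17, 40443200 to 40443449, plus strand), and of IGFBP5, which fell (chromosome 2, 216695550 to 216695799, minus strand), are shown 5′ to 3′ with the GCGTG or CACGC core in capitals. They differ in the core and in base composition, with 76.0%, 71.6% and 61.2% G and C, and no core was found in these windows of IGFBP4 and IGFBP5. The RefSeq start used for IGFBP3 lies 602 bases inside the gene as GENCODE draws it.
IGFBP3: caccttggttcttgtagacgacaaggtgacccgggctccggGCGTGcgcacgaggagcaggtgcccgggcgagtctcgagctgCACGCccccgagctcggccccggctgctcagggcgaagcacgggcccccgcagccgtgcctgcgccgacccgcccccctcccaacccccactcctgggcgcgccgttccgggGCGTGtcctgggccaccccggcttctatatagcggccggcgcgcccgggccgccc
IGFBP4: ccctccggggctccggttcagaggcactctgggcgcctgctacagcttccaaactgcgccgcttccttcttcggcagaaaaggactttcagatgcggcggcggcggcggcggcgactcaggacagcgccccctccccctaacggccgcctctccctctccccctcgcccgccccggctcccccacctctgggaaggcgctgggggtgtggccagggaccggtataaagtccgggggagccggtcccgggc
IGFBP5: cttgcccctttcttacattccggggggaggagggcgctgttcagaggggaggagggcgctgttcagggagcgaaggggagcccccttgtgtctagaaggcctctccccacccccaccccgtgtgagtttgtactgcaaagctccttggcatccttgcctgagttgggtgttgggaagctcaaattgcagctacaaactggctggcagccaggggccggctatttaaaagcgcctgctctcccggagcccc

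IGFBP1, whose production by the liver is held down by insulin, changed most. Its level was 59.4, 57.4 and 42.4 TPM in control replicates 1, 2 and 3, and 764, 877 and 853 TPM in rutaecarpine replicates 1, 2 and 3. The lowest treated library was far above the highest control. Mean levels were 53.0 ± 9.27 TPM in control and 831 ± 59.6 TPM in treated cells (SD, n = 3 each), and its log2 fold change, fitted to log2(TPM + 1), was 3.96 (standard error 0.14, limma adjusted p = 3.4e-05). Of the 14377 tested genes, 6 had a higher log2 fold change, which makes IGFBP1 rank 7. By level, IGFBP1 moved from rank 2584 of the tested genes in the control group to rank 164 after rutaecarpine. Without control replicate 3 its log2 fold change was 3.81.

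IGFBP3, the main IGF carrier in blood, was abundant before treatment and rose further. Control replicates 1, 2 and 3 had 695, 647 and 458 TPM, and the rutaecarpine libraries had 1590.2, 1591 and 1459 TPM. The groups were far apart, and the low control was replicate 3. Mean levels were 599.9 ± 125 and 1546 ± 76.1 TPM (SD, n = 3 each), and the log2 fold change was 1.39 (standard error 0.16, limma adjusted p = 0.00277). Leaving out control replicate 3 gave 1.20.

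IGFBP4, a binding protein cleaved by the protease PAPPA, rose by a similar factor from a lower level. Its TPM was 164, 146 and 206 in the controls and 473, 442 and 479 after rutaecarpine. Control replicate 3 was here the highest control and still lay below every treated library. The log2 fold change of 1.44 (standard error 0.13, limma adjusted p = 0.00122) became 1.58 without that library.

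**Figure D1:**
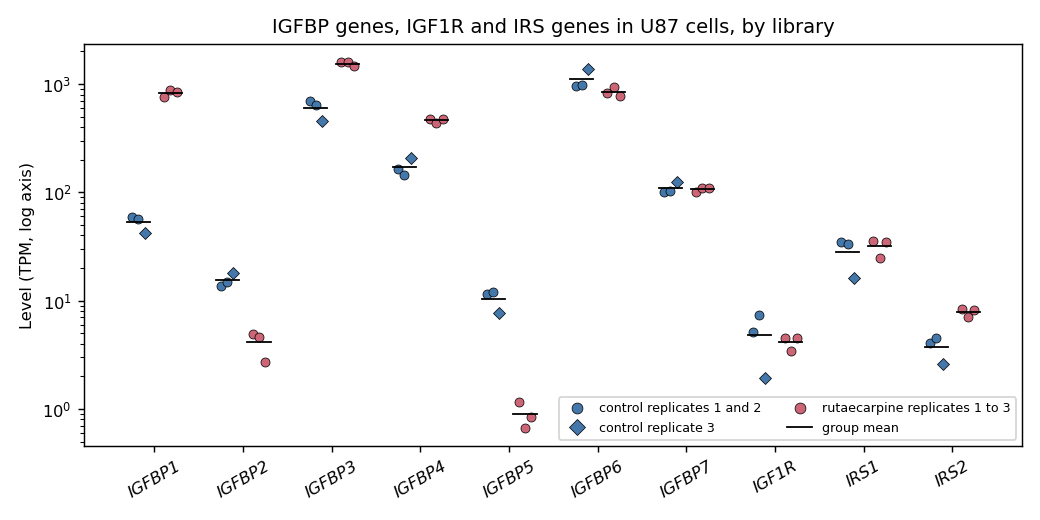
Level of each gene in each library in TPM on a log axis, with control libraries in blue (control replicate 3 as a diamond), rutaecarpine libraries in red and group means as lines. The treated libraries lie above all controls for IGFBP1, IGFBP3, IGFBP4 and IRS2 and below all controls for IGFBP2, IGFBP5 and IGFBP6.

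The 2 genes of the chromosome 2 pair were expressed at low levels and fell. IGFBP5, a binding protein that attaches to the extracellular matrix, had 11.45, 12.0 and 7.74 TPM in control replicates 1, 2 and 3 and 1.16, 0.67 and 0.85 TPM in rutaecarpine replicates 1, 2 and 3. Every treated library was several times below the lowest control. Its log2 fold change was -2.58 (standard error 0.22, limma adjusted p = 0.000962), the fall with rank 4 among all tested genes, and it was -2.76 without control replicate 3. IGFBP5 reached 1 TPM in 4 of the 6 libraries, so it entered the test mainly through the controls, and the added 1 makes this fold change smaller than the 11.6-fold ratio of the means.
IGFBP2 had 13.7, 14.9 and 18.0 TPM in the controls and 4.96, 4.65 and 2.74 TPM in the treated libraries. The highest treated library, replicate 1, was well under the lowest control. Mean levels were 15.5 ± 2.20 and 4.12 ± 1.20 TPM (SD, n = 3 each), with a log2 fold change of -1.71 (standard error 0.22, limma adjusted p = 0.00503). That was rank 25 from the largest fall, and the value was -1.61 without control replicate 3. All 5 DEGs of the group were also DEGs in each of the 6 fits that left out 1 library.

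IGFBP6 and IGFBP7 did not pass the test. IGFBP6, which prefers IGF2 over IGF1, was the most abundant gene of the group in the controls, with 968, 989 and 1365 TPM, against 822, 935 and 776 TPM after rutaecarpine. All treated libraries were below all controls, but the highest value belongs to control replicate 3 and the closest libraries of the groups were 935 and 968 TPM. Its log2 fold change was -0.38 (95% interval -0.73 to -0.03, unadjusted for the number of genes, and limma adjusted p = 0.179), and -0.22 without control replicate 3. IGFBP7, which binds IGFs weakly, had 100.5, 104 and 126 TPM in the controls and 100.3, 110.5 and 109.6 TPM in the treated libraries, so the groups overlapped. The interval of its log2 fold change ran from -0.29 to 0.22 around -0.04, with an adjusted p of 0.856 from limma. IGFBP7 overlaps POLR2B on the other strand over 396 bases, and strand use in the counting is not given in the sources used here.

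**Figure D2:**
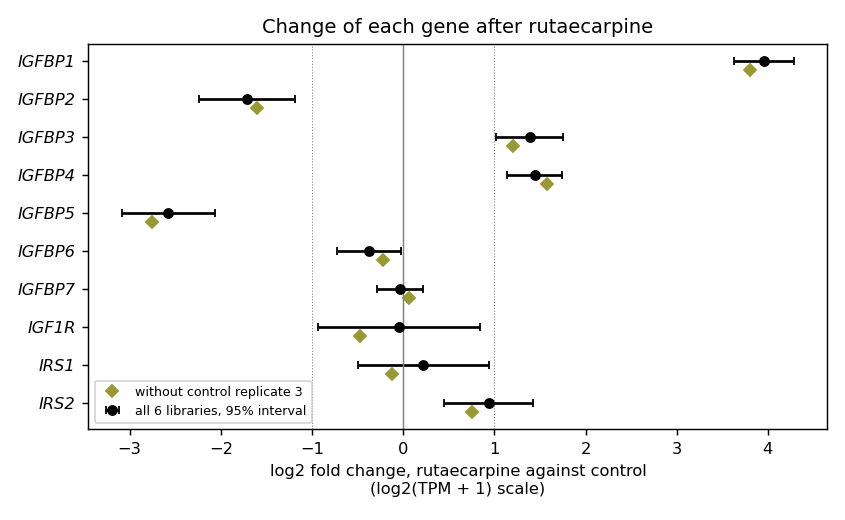
Log2 fold change of each gene on the log2(TPM + 1) scale with all 6 libraries and its 95% interval (black, not adjusted for the number of genes), and without control replicate 3 (diamonds). Dotted lines mark a log2 fold change of 1 in either direction. The intervals of IGFBP1, IGFBP3 and IGFBP4 lie above 1 and those of IGFBP2 and IGFBP5 below -1, while those of IGFBP7, IGF1R and IRS1 cross 0.

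The order of the genes by level changed with the treatment. In the controls it ran IGFBP6, IGFBP3, IGFBP4, IGFBP7, IGFBP1, IRS1, IGFBP2, IGFBP5, IGF1R and IRS2, and the neighbours in this order whose libraries overlapped were IRS1 with IGFBP2 and IGF1R with IRS2. After rutaecarpine IGFBP3 came ahead, followed by IGFBP6 and IGFBP1, whose libraries overlapped at 776 to 935 and 764 to 877 TPM. IGFBP4, IGFBP7, IRS1 and IRS2 came next, then IGF1R and IGFBP2, which overlapped, and IGFBP5 was last.
Added up, the 7 IGFBP mRNAs came to 2011, 1970.0 and 2222 TPM in control replicates 1, 2 and 3 and to 3755, 3959 and 3679 TPM in rutaecarpine replicates 1, 2 and 3. Every treated library was above every control, and the mean rose from 2068 ± 136 to 3798 ± 145 TPM (SD, n = 3 each), a ratio of 1.84. The sum and the shares in it are given as descriptions, with no test, since the genes were known to move.
IGFBP6 made up 53.2 ± 7.15% of the sum in the controls and 22.2 ± 1.29% after rutaecarpine (SD, n = 3 each). The share of IGFBP1 was 2.59 ± 0.59% in the controls and 21.9 ± 1.44% in treated cells, and that of IGFBP3 was 29.3 ± 7.60% and 40.7 ± 1.43%. Control replicate 3 had the lowest IGFBP3 share, 20.6%, and the difference of 11.4 percentage points in this share was 7.03 without that library. IGFBP4 held 8.27 ± 0.92% and 12.2 ± 0.97%, and IGFBP7 held 5.31 ± 0.33% and 2.81 ± 0.15%. IGFBP1, IGFBP3 and IGFBP4, put together because they rose, held 31.8 to 45.6% of the sum in the controls and 73.5 to 75.8% in the treated libraries. IGFBP2 and IGFBP5 each were under 1% of the sum in every library. These are amounts of mRNA, and protein was not measured.

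**Figure D3:**
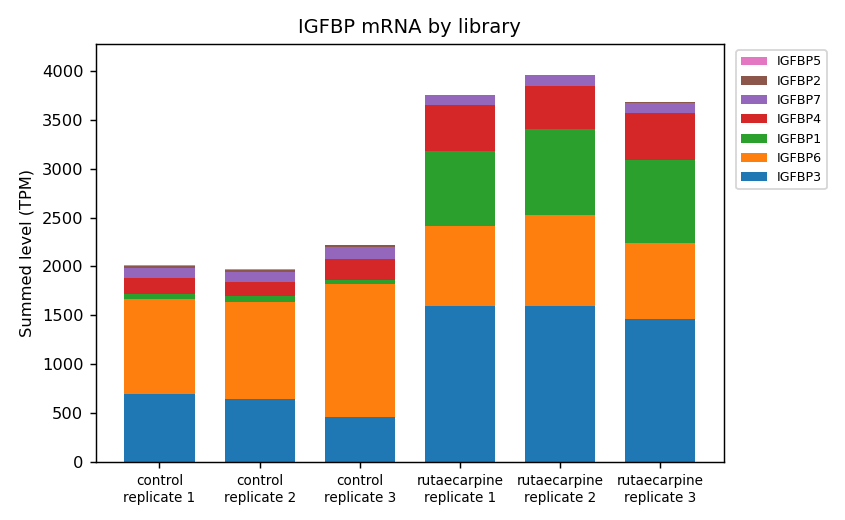
Summed level of the 7 IGFBP genes in TPM in each library, stacked by gene from the most to the least abundant in treated cells. The bars reach 1970.0 to 2222 TPM in the controls and 3679 to 3959 TPM after rutaecarpine, with most of the added height in IGFBP1 and IGFBP3.

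Of the receptor and its substrates, IRS2 passed the test. IGF1R had 5.10, 7.37 and 1.92 TPM in control replicates 1, 2 and 3 and 4.54, 3.43 and 4.55 TPM in rutaecarpine replicates 1, 2 and 3. The controls spread on both sides of the treated libraries, and the lowest was control replicate 3. The log2 fold change was -0.04 with a 95% interval of -0.93 to 0.85 (limma adjusted p = 0.955), so neither a rise nor a fall of moderate size was detectable. Without control replicate 3 it was -0.47 (limma adjusted p = 0.152).
IRS1 had 34.9, 33.7 and 16.1 TPM in the controls and 35.55, 25.0 and 34.5 TPM after rutaecarpine. The groups overlapped, and the low control was again replicate 3. Its log2 fold change was 0.22 (95% interval -0.49 to 0.94, limma adjusted p = 0.684), and turned to -0.13 without that library.
IRS2, the other main substrate of the receptor, had 4.06, 4.50 and 2.58 TPM in the controls and 8.45, 7.05 and 8.22 TPM after rutaecarpine. Every treated library was above every control. The log2 fold change was 0.94 (standard error 0.21, limma adjusted p = 0.0357), and IRS2 was therefore changed but not a DEG. With 0.1 added in place of 1 before taking log2, the value was 1.10 (limma adjusted p = 0.0401), which made IRS2 a DEG. The call depended on which libraries were kept and on the fit. Without control replicate 3 the value was 0.75 with an adjusted p of 0.0133 from limma, and in each of the 5 fits that left out another library the adjusted p was above 0.05, up to 0.148 without rutaecarpine replicate 3. With the replicate number as a block the limma adjusted p was 0.137, and with no filter on low values it was 0.0937. It was 0.00235 with library weights, 0.00232 with length and GC trends removed and 0.00889 with libraries centred on their medians. An antisense gene, AL162497.1, overlaps IRS2 over 738 bases and had 1.70 to 2.73 TPM across the libraries. The ratio of IRS1 to IRS2 was 8.60, 7.49 and 6.23 in the controls and 4.21, 3.55 and 4.2 in the treated libraries, lower in every treated library than in any control.
The 3 genes have the longest transcripts of the group, 12235 bases for IGF1R, 9705 for IRS1 and 8138 for IRS2. In control replicate 3 they were lower than in control replicates 1 and 2 by 1.29, 1.05 and 0.56 on the log2(TPM + 1) scale, where the median of genes of 8000 bases or more was -0.74. IGFBP6, IGFBP4, IGFBP2 and IGFBP7 were higher there, by 0.48, 0.41, 0.31 and 0.30. IGFBP1, IGFBP3 and IGFBP5 were lower by 0.45, 0.55 and 0.54, so transcript length does not order all of the genes. With the trends on length and GC content removed from every library, the log2 fold changes were -0.17 for IGF1R, 0.10 for IRS1 and 0.88 for IRS2.

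**Figure D4:**
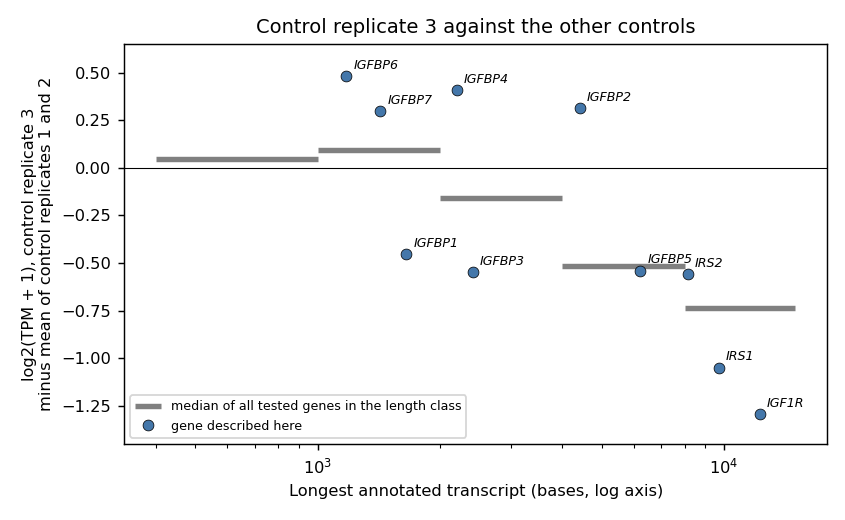
Difference of control replicate 3 from the mean of control replicates 1 and 2 on the log2(TPM + 1) scale, against the length of the longest annotated transcript in bases on a log axis. Points are the genes described here and grey bars are medians of all tested genes in 5 length classes, which run from 0.05 for the shortest to -0.74 for the longest.

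The ligands were nearly silent in these cells. IGF1 was at most 0.20 TPM and IGF2 at most 0.21 TPM in any library, and INS was listed at 0 in all 6. IGFALS, which joins IGFBP3 and IGF in the large complex of blood, was at most 0.20 TPM. None of these 4 genes entered the test. Besides IGF1R, both other receptors that bind these ligands were expressed. INSR, the insulin receptor, had 3.69, 3.74 and 2.63 TPM in the controls and 5.23, 4.01 and 4.83 TPM after rutaecarpine, with a limma adjusted p of 0.259. IGF2R, which takes up IGF2 for breakdown, had 53.9 to 83.3 and 68.6 to 90.0 TPM, with groups that overlapped. By limma, 0 of the 3 receptors changed, and 0 had an unadjusted p under 0.05. Of all 14377 tested genes, 1922 were higher and 1584 lower at that unadjusted threshold, and 3 genes are too few to set beside this.

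Among the 8 genes listed as IGFBP proteases or their inhibitors, all of which were tested, 1 rose and 1 fell. Of all tested genes, 4.6% were higher and 4.68% lower. Without control replicate 3, 2 of the 8 were higher and 2 lower, beside 1179 higher and 1487 lower of all 14377 tested genes. STC2, a secreted inhibitor of PAPPA, had 85.7, 82.6 and 54.1 TPM in the controls and 412.5, 348 and 482 TPM after rutaecarpine. The groups were far apart, and the log2 fold change was 2.48 (standard error 0.20, limma adjusted p = 0.000855). PAPPA itself had 17.4, 17.1 and 6.93 TPM in the controls and 39.5, 25.3 and 48.1 TPM in the treated libraries, which did not overlap. Its log2 fold change of 1.44 missed the threshold with all libraries (limma adjusted p = 0.0611), and without control replicate 3 it was 1.04 with an adjusted p of 0.0234. STC1, the paralog of STC2, was abundant with 616 to 1182 TPM in the controls and 1259 to 1599 TPM after rutaecarpine (limma adjusted p = 0.202). PRSS23, a secreted serine protease that is not an established IGFBP protease, fell from 33.3, 35.0 and 27.8 TPM to 10.4, 10.75 and 10.4 TPM, with a log2 fold change of -1.51 (limma adjusted p = 0.000994). HTRA1, a serine protease with an IGFBP-type domain, had 667 to 696 TPM in the controls and 711 to 765 TPM in treated cells, and the adjusted p was 0.40 in limma. The median log2 fold change of the list was 0.30, beside 0.08 for all tested genes.

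**Figure D5:**
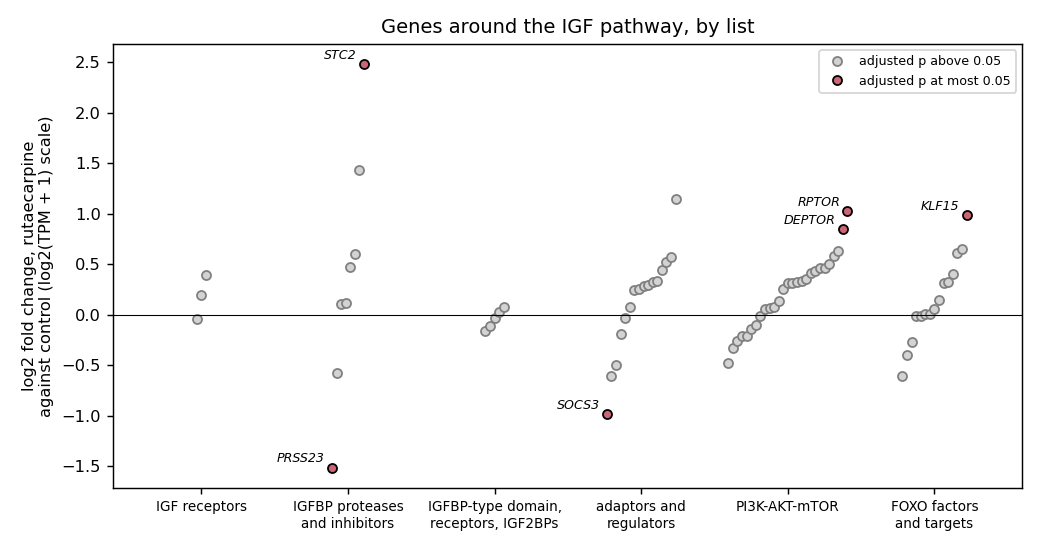
Log2 fold change on the log2(TPM + 1) scale of every tested gene in 6 lists around the IGF pathway, sorted within each list, with IGF1R shown among the receptors. Red points had an adjusted p of at most 0.05. These are STC2, PRSS23, SOCS3, RPTOR, DEPTOR and KLF15, and all other genes are grey.

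Of 73 tested genes in all 6 lists, leaving out the 10 described above, 4 were higher and 2 were lower. Of all tested genes, 4.6% were higher and 4.68% lower. Without control replicate 3 there were 7 higher and 4 lower, beside 1179 higher and 1487 lower of all 14377 tested genes. In the PI3K-AKT-mTOR list, 2 of 27 were higher. RPTOR, the scaffold subunit of mTOR complex 1, had 24.85, 23.8 and 20.15 TPM in the controls and 51.6, 40.1 and 51.7 TPM after rutaecarpine, a log2 fold change of 1.02 (limma adjusted p = 0.00606) that was 0.94 without control replicate 3. DEPTOR, an inhibitor of mTOR, went from 0.58 to 0.95 TPM up to 1.61 to 2.47 TPM. It was changed in 1 of the 6 fits that left out a library, the one without control replicate 3 (limma adjusted p = 0.0454). All controls were under 1 TPM, so DEPTOR entered the test through the treated libraries, where it is high. AKT1 had 126 to 131 TPM in the controls and 103 to 117 TPM in the treated libraries, with an adjusted p of 0.163 in limma, and AKT2, RHEB and EIF4EBP1 had adjusted p values of 0.501, 0.201 and 0.179. Without control replicate 3, EIF4EBP1, a translation repressor that mTOR inactivates, had a log2 fold change of 0.48 with a limma adjusted p of 0.0136.
Of 16 tested adaptors and receptor regulators, 1 changed. SOCS3, a feedback inhibitor of cytokine receptors that also acts on insulin receptor signalling, fell from 42.7, 39.1 and 40.9 TPM to 20.9, 18.8 and 20.9 TPM, with a log2 fold change of -0.98 (limma adjusted p = 0.00201). The abundant adaptors SHC1, GRB2, GRB10 and PTPN11 had limma adjusted p values from 0.195 to 0.418. Of 15 tested FOXO factors and FOXO target genes, KLF15 alone was changed, from 0.18 to 0.41 TPM in the controls to 1.17 to 1.86 TPM, and it kept the call in 2 of the 6 fits that left out a library. Like DEPTOR, it reached 1 TPM in treated libraries alone and entered the test through them. FOXO factors are the transcription factors that AKT keeps out of the nucleus, and IGFBP1 and IRS2 are among their known targets. CDKN1B, a cell cycle inhibitor, had 36.3, 38.9 and 24.9 TPM in the controls and 51.75, 48.9 and 50.9 TPM after rutaecarpine, with a limma adjusted p of 0.0732 that was 0.0114 without control replicate 3. CITED2, DEPP1 and CAT overlapped between the groups. In the list of other genes with an IGFBP-type domain, IGFBP receptors and IGF2 mRNA-binding proteins, 0 of 5 tested genes had a limma adjusted p of at most 0.05 and 0 an unadjusted p under 0.05. Of all 14377 tested genes, 1922 were higher and 1584 lower at that unadjusted threshold. Of the 5, TMEM219, a receptor for IGFBP3, had 124 to 144 and 111 to 141 TPM. CRIM1, IGF2BP2 and IGF2BP3 overlapped between the groups as well.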

How the data were processed

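RNA-Seq of 3 rutaecarpine and 3 control U87 libraries was analysed, with groups and replicate numbers from the sample titles. Sequencing was done on an Illumina NovaSeq, and the deposited values are gene-level TPM that the authors computed with RSEM, 1 column per library. The submitters' processing notes name the build GRCh38.p13, and the aligner, annotation release and strand setting are not given in the sources used here. Each of the 6 value columns belongs to 1 library, with 0 left over. RSEM divides reads that match several genes, so genes with close copies or overlaps are less certain. TPM keeps no read numbers, so count-based tests were not used.

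Genes with at least 1 TPM in at least 3 libraries were kept, 1 was added before taking log2, and the groups were compared across all genes with limma 3.58.1 under R 4.3.3 (moderated two-sided test with a mean-variance trend), with Benjamini-Hochberg adjustment. The script was tested on simulated data with independent noise. The spread there was taken without control replicate 3, so the length trend of that library was not part of that test. A planned permutation test of sums, shares and ratios over these genes is not reported, as the genes were chosen with results known. Figures were drawn with matplotlib 3.10.9. Positions, lengths and GC content came from GENCODE release 29, and promoters from the RefSeq table. Of 60671 genes, 35671 had no name in the table, and 35432 of these took one from a table of gene names by Ensembl identifier. Protein sequence features had been planned and were not analysed here.

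The genes and lists were chosen with earlier results of these data known, and IGFBP3, IGFBP5 and IRS2 are among genes the study itself picked from these libraries, so their changes are not independent evidence. The study also measured IGFBP3 by qPCR and reported a change that matched its RNA-Seq. Every gene of the group is named. From the lists, DEGs are named with up to 4 other genes of the highest level, and SOCS3, DEPTOR and KLF15 were added after their values were seen, as were IGF1, IGF2, INS and IGFALS. Near the IGFBP genes, the nearest tested gene on either side and DEGs within 500 kb are named, and CYP1B1 checks the treatment. The alternatives were median centring, no trend, another filter or none, a pseudocount of 0.1, a replicate block, library weights, removal of length and GC trends with splines of 5 degrees of freedom, and leaving out each library.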

Additional observations from a re-analysis of the deposited data

How the results depend on the processing

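IGFBP1, IGFBP3 and IGFBP4 stayed higher DEGs and IGFBP2 a lower DEG in all 14 alternative fits, and IGFBP5 in the 13 that tested it. It was left out where every library had to reach 1 TPM, and there 1 of the 10 genes was lower and 1 was a lower DEG, since fewer genes were tested. IRS2 lost its call in 7 fits and was a DEG with the pseudocount of 0.1. Values of genes without a call turned sign in IGFBP7 (0.023 with library weights, -0.10 to 0.062 leaving out 1 library, the highest without control replicate 3), IGF1R (-0.47 to 0.29 leaving out 1 library) and IRS1 (-0.13 without control replicate 3, up to 0.41), and IGFBP6 passed the threshold with library weights (-0.27). The summed IGFBP level rose by 1511 TPM with medians made equal, and by 1649 to 1807 TPM leaving out 1 library. Promoter starts with the letters searched went from 0 to 4 with the shorter core, by construction.

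Of the 73 other pathway genes, the number higher was 2 where every library had to reach 1 TPM, 2 with the replicate block, 11 with library weights, 10 with length and GC trends removed and 2 to 7 leaving out 1 library, and the number lower was 7 with weights, 5 with trends removed and 2 to 4 leaving out 1 library. Over all tested genes, 236 were higher and 192 lower with the block (125 lower DEGs), 1935 and 2027 with weights, 1301 and 1461 with trends removed, and 439 lower with no filter. Leaving out 1 library gave 278 to 1179 higher, 261 to 1487 lower and 153 to 330 lower DEGs, with the highest of each without control replicate 3, and 195 to 280 higher DEGs. The causes were not tested. Deviations of same-numbered libraries from their group means correlated across genes at 0.116, -0.266 and -0.215. With 3 libraries a group, these values cannot show whether libraries with the same number were handled together. The block changed no call of the group other than that of IRS2. TPM hold no depth, so the precision rests on 3 libraries a group.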

Other observations

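Genes beside the IGFBP genes were looked up within 500 kb. The single other tested gene near IGFBP1 and IGFBP3, the pseudogene SEPTIN7P2, had 7.52 to 11.6 TPM in the controls and 11.5 to 14.1 TPM after rutaecarpine, with a limma adjusted p of 0.382. Near IGFBP2 and IGFBP5, 5 other genes were tested and 0 had a limma adjusted p of at most 0.05, while 1, LINC01963, had an unadjusted p under 0.05, with 6.69 to 8.08 TPM in the controls and 4.99 to 5.70 TPM after rutaecarpine. The nearest of them, the ribosomal protein gene RPL37A, had 1755 to 2598 TPM in the controls and 1524 to 1719 TPM in treated cells (limma adjusted p = 0.282). Near IGFBP7, 0 of 4 tested genes changed in limma, and 0 had an unadjusted p under 0.05. Of all 14377 tested genes, 4.6% were changed and higher and 4.68% changed and lower. At an unadjusted p under 0.05, 1922 were higher and 1584 lower.

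Other DEGs lay near IGFBP4 and IGFBP6. Of 21 other genes tested around IGFBP4, 2 were higher and 2 were lower, and of all tested genes 4.6% were higher and 4.68% lower. CSF3, which encodes the granulocyte growth factor G-CSF, rose from 559, 548 and 620 TPM to 2357, 2684 and 2566 TPM, and its log2 fold change after adding 1 TPM was 2.14 (limma adjusted p = 5.5e-05). The keratin gene KRT23 had 0.13 to 0.48 TPM in the controls and 1.03 to 3.05 TPM after rutaecarpine (limma adjusted p = 0.0365). It entered the test through the treated libraries, where it is high, and kept its call in 2 of the 6 fits that left out a library. THRA, a thyroid hormone receptor, had 21.3, 19.6 and 21.0 TPM in the controls and 14.8, 12.2 and 14.9 TPM after rutaecarpine (limma adjusted p = 0.0465). On either side of IGFBP4 the nearest tested genes were TOP2A and CCR7. TOP2A, a topoisomerase of dividing cells, fell from 89.4, 83.6 and 55.8 TPM to 42.4, 31.7 and 42.3 TPM (limma adjusted p = 0.0329). THRA and TOP2A each kept the call in 1 of the 6 fits that left out a library, the one without control replicate 3. There the limma adjusted p was 0.0277 for THRA and 0.00157 for TOP2A, whose log2 fold change was -1.15. CCR7, a chemokine receptor, had 0.59 to 2.43 and 1.82 to 3.40 TPM, with groups that overlapped (limma adjusted p = 0.344). Of 25 other genes around IGFBP6, 3 were higher and 0 lower. Without control replicate 3, 6 of the 25 passed the threshold, beside 1179 higher and 1487 lower of all 14377 tested genes. TNS2 was among the 6 and was lower in that fit (log2 fold change -0.73, limma adjusted p = 0.00636). The DEG around IGFBP6, the keratin gene KRT79, rose from 9.66, 10.1 and 6.17 TPM to 23.0, 24.8 and 24.95 TPM (log2 fold change 1.41, limma adjusted p = 0.00562). The retinoic acid receptor gene RARG rose from 36.6 to 40.8 TPM in the controls to 64.8 to 72.25 TPM (limma adjusted p = 0.00316). KRT78 had 0.80 to 1.19 TPM in the controls, of which 1 reached 1 TPM, and 2.25 to 3.40 TPM in treated cells (limma adjusted p = 0.0260). It kept the call in 1 of the 6 fits, the one without control replicate 3 (limma adjusted p = 0.0133). LINC01963, THRA, TNS2, RARG and KRT78 were named after their values were seen. SPRYD3 and CSAD, the nearest on either side of IGFBP6, had limma adjusted p values of 0.141 and 0.70.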
